A study of Danio rerio with 2 samples.

Results

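The Fox and Sox genes encode transcription factors, proteins that bind DNA and set which genes a cell transcribes. The members were every identifier of the deposited table whose gene symbol, with case ignored, was fox followed by a letter and a number or sox followed by a number. Of 84 such identifiers, 5 were left out by name (foxh1, foxl2l, foxj1a, foxj1b and sox19b), which left 79 genes, 53 Fox and 26 Sox, of the 24539 in the table. The identifier ENSDARG00000101919 carries the symbol FOXJ1, a RefSeq synonym of foxj1a, and was left out under that name. The testis library and the ovary library were each made from a pool of 3 adult wild-type zebrafish (Danio rerio), so both share the wild-type genotype and differ in sex and organ. The question of the study was which genes differ between the sexes in the gonad.

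Fox proteins share the forkhead or winged-helix domain, and Sox proteins share an HMG box related to that of the mammalian testis-determining factor SRY. Both families are divided by sequence into subfamilies, Fox by letter and Sox by groups B1 to H, and the zebrafish genome holds duplicate copies of many of them. In vertebrate gonads, SOX9 and SOX8 act in Sertoli cells, the cells that nurse developing sperm, while FOXL2 acts in granulosa cells, which surround the oocyte. Other members act in germ cells or in the vessels, nerves and immune cells of the gonad, and many are known mainly from the embryo.

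Values are FPKM, fragments scaled to gene length and to the total of the same library, so levels can be set side by side between genes. The testis column summed to 562394 FPKM and the ovary column to 572635 FPKM. The table gives no depth, which is unknown here, so values under 1 FPKM may rest on few reads. The smallest value, 0.01 FPKM, was read as a floor in place of 0, and a gene at it is described as listed at the floor. Each organ has 1 library, so the differences have no check between replicates and carry no p-value. A gene was classed as higher in an organ when (FPKM + 1) differed at least 2-fold and the higher library reached 1 FPKM; the added 1 FPKM makes the ratio of a low gene look smaller than it is. The organ labels fitted the marker genes. All 5 Sertoli markers were higher in testis (1499 FPKM in sum in testis and 16.4 FPKM in ovary), and so were all 5 of spermatocytes and spermatids (1843 and 32.0 FPKM). All 7 oocyte markers were higher in ovary (31.2 FPKM in testis and 10189 FPKM in ovary). In whole organs, fewer cells of a type and less RNA per cell cannot be told apart.

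As classes, the Fox and Sox genes divided between the organs much as all genes did, and the differences lay in single members. Of the 79, 20 were higher in testis and 6 in ovary, or 25.3% and 7.60%, against 35.0% and 12.9% of all genes of the table. The other 53 comprised 18 that differed by less than 2-fold and 35 (44.3%) that stayed under 1 FPKM in both libraries; 22.4% of all genes stayed under it. Among genes that reached 1 FPKM, the members' shares were 45.5% and 13.6%, and those of all genes were 45.1% and 16.6%. The members' median log2 ratio (testis over ovary) was 0.43, and the median of the whole table was 0.48. These directions depended on the scaling. The median log2 ratio of all genes that reached 1 FPKM was 0.80, and with it set to 0 the members divided into 12 higher in testis and 10 higher in ovary, with a median of -0.37. All genes then divided into 4777 higher in testis and 5779 higher in ovary, with a median of -0.32, so the whole table shifted with the members; testis calls made up 54.5% of the members' calls and 45.3% of those of all genes. Rescaling on the trimmed mean of the log ratios lowered the testis FPKM by 0.98 on the log2 scale before 1 FPKM was added. The log2 ratios of low genes therefore moved by less than 0.98. It also gave 12 and 10 members, against 4982 and 5780 of all genes.

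**Figure D1:**
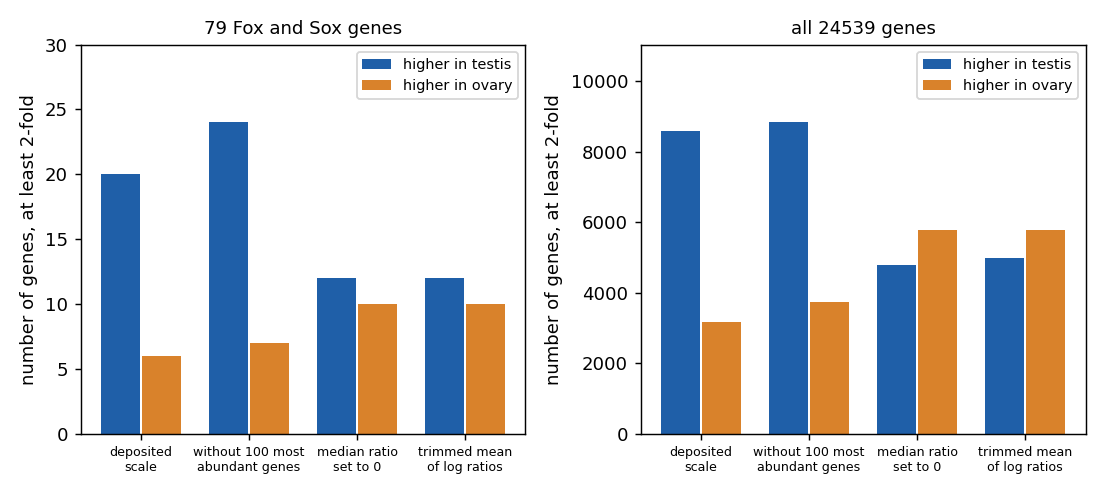
Number of genes at least 2-fold higher in testis (blue) or in ovary (orange) under 4 scalings, for the 79 Fox and Sox genes (left) and all 24539 genes (right); both axes start at 0. Members higher in testis number 20 on the deposited scale and 12 with the median ratio set to 0, while those higher in ovary number 6 and 10.

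By level, the higher value of 17 members lay between 1 and 5 FPKM, with 8 of them classed towards testis and 1 towards ovary. Between 5 and 20 FPKM there were 16 members, 8 towards testis and 2 towards ovary. The 11 members that reached 20 FPKM comprised 4 towards testis and 3 towards ovary. Among all genes of these 3 bins, 56.3%, 47.9% and 34.0% were higher in testis and 5.36%, 13.2% and 28.2% in ovary. The members' shares towards testis, each over at most 17 genes, were 47.1%, 50.0% and 36.4%.

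The Fox members summed to 662 FPKM in testis and 313 FPKM in ovary. The Sox members summed to 126 FPKM in testis and 156 FPKM in ovary. The 5 genes left out by name, sox19b among them, are not in these sums. A single gene, FOXM1, made up 56.5% of the Fox sum in testis; without it the Fox sums were 288 and 271 FPKM. The ovary sum of the Sox members was held by SOX11 (ENSDARG00000095743) and sox21a, which together made up 82.1% of it. In testis the leading Sox genes, SOX8 (ENSDARG00000037782), SOX5 and SOX9 (ENSDARG00000003293), made up 65.0% of the Sox sum.

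FOXM1, which drives genes of mitotic entry in dividing cells, was the most abundant member in testis. It stood at 374 FPKM in testis and 41.5 FPKM in ovary, a plain ratio of 9.01, and ranked 155th of all genes in testis and 2686th in ovary. Of 23 measured partners and targets of FoxM1, all of which reached 1 FPKM, the rule classed 9 towards testis and 5 towards ovary (39.1% and 21.7%; median log2 ratio 0.56), near the 45.1% and 16.6% of all genes at that level. With the median ratio of all genes set to 0 the counts were 3 and 8, a setting that also turned the balance of the whole table towards ovary. The 3 genes of that list with the highest mean of both libraries were higher in ovary. The mitotic cyclin genes CCNB1 and CCNB2 had 136 and 44.9 FPKM in testis, against 866 and 681 FPKM in ovary. CDC20, an activator of the anaphase-promoting complex, stood at 151 FPKM in testis and 388 FPKM in ovary. The highest of the list in testis was TOP2A, a topoisomerase gene, with 245 FPKM in testis and 98.4 FPKM in ovary, classed as higher in testis; it was named after its values were seen.

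The FoxO factors are switched off by insulin and growth factor signalling and restrain growth. They were the family in which copies of 1 gene were classed in opposite directions. Of 7 measured FoxO genes, 3 were classed towards testis and 1 towards ovary (42.9% and 14.3%, against 35.0% and 12.9% of all genes). The gene foxo3a stood at 1.39 FPKM in testis and 9.50 FPKM in ovary, a plain ratio of ovary to testis of 6.84. Its copy foxo3b stood at 3.26 FPKM in testis and 0.95 FPKM in ovary. In mouse, Foxo3 holds resting oocytes back from growth. The call of foxo3a held under every scaling and pseudocount tried. That of foxo3b was lost under both recentred scalings (log2 ratios 0.33 and 0.44 in place of 1.13). It was also lost with a pseudocount of 5 (0.47) and with a minimum of 5 FPKM.

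The FOXO1 identifier ENSDARG00000099555 stood at 7.81 FPKM in testis and 0.81 FPKM in ovary, and the other FOXO1 identifier, ENSDARG00000061549, at 1.27 and 0.28 FPKM, under 2-fold on (FPKM + 1) and over it with a pseudocount of 0.1 (log2 ratio 1.85). In mouse, Foxo1 marks spermatogonial stem cells. FOXO4 stood at 12.8 FPKM in testis and 2.21 FPKM in ovary, a plain ratio of 5.80. The genes foxo6a and foxo6b stayed at or under 0.37 FPKM. Of 15 measured regulators of FoxO, 4 were higher in testis and 2 in ovary (median log2 ratio 0.79). All 15 reached 1 FPKM, and the shares were 26.7% and 13.3%, against 45.1% and 16.6% of all genes at that level. With the median ratio set to 0, all genes divided into 4777 and 5779, and these regulators into 2 and 4. Their most abundant members were ywhaz, which encodes a protein that holds FoxO in the cytoplasm (87.4 FPKM in testis and 125 FPKM in ovary), the deacetylase gene SIRT1 (45.1 and 31.0 FPKM) and the deubiquitinase gene USP7 (49.8 and 22.8 FPKM). Of these, USP7 was classed as higher in testis.

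**Figure D2:**
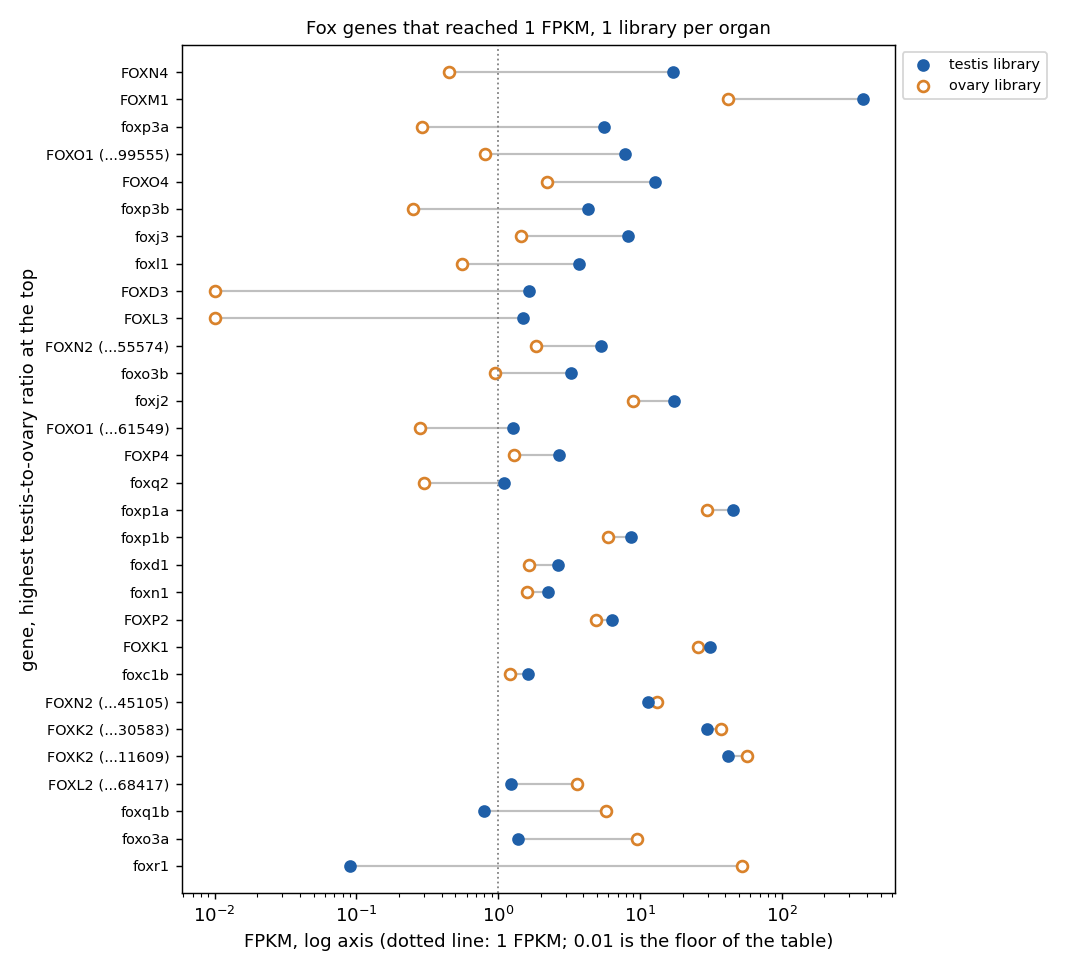
FPKM on a log axis for 30 of the 31 Fox members that reached 1 FPKM, with the testis library as filled blue points and the ovary library as open orange points, ordered by the log2 ratio. The point pairs are widest for foxr1 (0.09 FPKM in testis, 52.1 FPKM in ovary) towards ovary and, among genes above the floor in both, for FOXN4 (17.0 and 0.45 FPKM) towards testis; the points of FOXK1 (31.4 and 25.5 FPKM) lie close together.

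The Fox gene with the lowest ratio was foxr1, whose maternal transcript zebrafish embryos need for their first cell divisions. It stood at 0.09 FPKM in testis and 52.1 FPKM in ovary, and 165 of the 24539 genes had a lower log2 ratio. Its testis level is low enough that the plain ratio of 579 is poorly determined. It ranked 2002nd in ovary. The gene foxq1b stood at 0.79 FPKM in testis and 5.79 FPKM in ovary, while FOXQ1 read 0.08 FPKM in testis and was listed at the floor in ovary. In the RefSeq gene order, foxq1b lies next to foxf2b and this next to foxc1b, an old cluster of forkhead genes. The 3 neighbours differed: foxf2b read 0.36 FPKM in testis and was at the floor in ovary, and foxc1b read 1.63 FPKM in testis and 1.21 FPKM in ovary.

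FOXL2, the granulosa cell factor, is carried by a pair of identifiers, and both had higher values in ovary. ENSDARG00000068417 stood at 1.23 FPKM in testis and 3.61 FPKM in ovary, just over the 2-fold rule with a log2 ratio of -1.05. ENSDARG00000042180 was at the floor in testis and at 0.73 FPKM in ovary, under the minimum. The files do not say which of them is foxl2a and which foxl2b. Of 4 measured granulosa and theca markers, 3 were higher in testis (sum of the 4, 100.3 FPKM in testis and 4.78 FPKM in ovary). Most of the testis sum was hsd3b1 (93.8 FPKM in testis and 2.54 FPKM in ovary). FSHR read 4.72 and 0.07 FPKM and lhcgr 1.81 and 0.13 FPKM. CYP19A1, the aromatase gene, was at the floor in testis and at 2.04 FPKM in ovary. The markers went in both directions, so the list gives no measure of follicle cell number. The part of follicle cell number in the FOXL2 levels was not tested. FOXL3 went the other way, with 1.51 FPKM in testis and the floor in ovary; this call was lost under both recentred scalings (log2 ratios 0.52 and 0.81). RefSeq gives foxl3 also as a synonym of foxl2l, but the symbols belong to separate identifiers in the table. The gene foxl1, known from gut mesenchyme, stood at 3.71 FPKM in testis and 0.56 FPKM in ovary, a call also lost under both recentred scalings (log2 ratios 0.80 and 0.88). The stroma and smooth muscle markers were all higher in testis (5 of 5, sum 310.0 FPKM in testis and 15.1 FPKM in ovary); their part in the foxl1 level was not tested.

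Of 2 FoxJ members 1 was classed as higher in testis, and of 5 FoxN members 2 were. The shares were 50% and 40%, each over few genes, against 35.0% of all genes. None of them was classed as higher in ovary, against 12.9% of all genes. FOXN4, needed in mouse for retinal and spinal interneurons, stood at 17.0 FPKM in testis and 0.45 FPKM in ovary, a plain ratio of 37.8. The gene foxj3, needed in mouse for spermatogenesis, stood at 8.19 FPKM in testis and 1.44 FPKM in ovary. Its relative foxj2 stood at 17.3 FPKM in testis and 8.87 FPKM in ovary, under 2-fold. The FOXN2 identifiers differed: ENSDARG00000045105 read 11.4 FPKM in testis and 13.2 FPKM in ovary, and ENSDARG00000055574 read 5.36 and 1.86 FPKM. The call of the second was lost under both recentred scalings (log2 ratios 0.35 and 0.38), and the first passed the rule towards ovary with the trimmed mean (-1.07). No member classed on the deposited scale changed sides under either. The thymus factor gene foxn1 read 2.26 FPKM in testis and 1.60 FPKM in ovary, and foxn3 read 0.66 and 0.12 FPKM.

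The FoxK and FoxP1 genes were among the 18 members that differed by less than 2-fold on the deposited scale. FoxK proteins bind many promoters and regulate metabolism and autophagy in mammalian cells. FOXK1 stood at 31.4 FPKM in testis and 25.5 FPKM in ovary. The FOXK2 identifiers had 42.2 and 29.8 FPKM in testis, against 57.2 and 37.2 FPKM in ovary. None of the 3 passed 2-fold on the deposited scale; both FOXK2 identifiers passed it towards ovary with the median ratio set to 0 (log2 ratios -1.23 and -1.11) and with the trimmed mean (-1.38 and -1.25). Of the FoxP genes, which encode repressors, foxp1a stood at 45.4 FPKM in testis and 29.96 FPKM in ovary, foxp1b at 8.65 and 5.93 FPKM, FOXP2 at 6.33 and 4.91 FPKM, and FOXP4 at 2.70 and 1.29 FPKM. None of these passed the rule, though FOXP4 did so towards testis with a pseudocount of 0.1 (log2 ratio 1.01).

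The remaining FoxP genes, foxp3a and foxp3b, differed from that pattern. Foxp3 marks regulatory T cells in mammals, and foxp3a is needed for such cells in zebrafish. The gene foxp3a stood at 5.54 FPKM in testis and 0.29 FPKM in ovary, and foxp3b at 4.34 FPKM in testis and 0.25 FPKM in ovary, plain ratios of 19.1 and 17.4. This was the only 1 of 17 pairs of copies in which both were higher in testis, and only 7 pairs had both copies at 1 FPKM. Both foxp3 calls were lost with a pseudocount of 5 (log2 ratios 0.995 and 0.831). The 3 measured immune markers were also higher in testis, their sum being 172 FPKM in testis and 8.27 FPKM in ovary; their part in the foxp3 levels was not tested.

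FOXD3, a neural crest factor gene, was also classed as higher in testis, with 1.66 FPKM in testis and the floor in ovary. Its call was lost under the recentred scalings. Of 5 measured markers of neurons and glia, 1 was higher in testis and none in ovary (sum 9.91 FPKM in testis and 4.68 FPKM in ovary, with S100B and GFAP at the floor in ovary); their part was not tested. The genes foxd1 (2.65 FPKM in testis, 1.64 FPKM in ovary) and foxq2 (1.1 and 0.30 FPKM) did not pass 2-fold on (FPKM + 1); foxq2 did so with a pseudocount of 0.1 (log2 ratio 1.58). A further 22 Fox genes stayed under 1 FPKM in both libraries, with 0.01 to 0.85 FPKM in testis and 0.01 to 0.73 FPKM in ovary. They include all measured FoxA, FoxB, FoxE, FoxF and FoxI genes, factors best known from endoderm, gut, lens and ear. Of the 22, 2 were at the floor in testis and 10 in ovary.

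The SoxE genes, the group of SOX9, had their higher values in testis. Of 5 measured, 2 (40%) were classed as higher in testis and none in ovary, against 35.0% and 12.9% of all genes. The 5 summed to 68.4 FPKM in testis and 9.47 FPKM in ovary. The SOX9 identifier ENSDARG00000003293 stood at 22.8 FPKM in testis and 0.48 FPKM in ovary, a plain ratio of 47.5, and 861 of the 24539 genes had a higher log2 ratio. The other SOX9 identifier, ENSDARG00000043923, stood at 8.12 FPKM in testis and 4.09 FPKM in ovary, a log2 ratio of 0.84. The higher copy thus differed between the organs: the first identifier in testis, the second in ovary, where it made up 89.5% of the sum of both. In zebrafish, sox9a is known from Sertoli cells and sox9b from oocytes as well; the files do not say which identifier is which.

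SOX8, which backs up SOX9 in the mouse testis, was the most abundant Sox gene in testis. ENSDARG00000037782 stood at 35.8 FPKM in testis and 4.82 FPKM in ovary, a plain ratio of 7.43. The other SOX8 identifier, ENSDARG00000105301, read 0.84 FPKM in testis and 0.05 FPKM in ovary, so the first made up 97.7% of the pair's sum in testis and 99.0% in ovary. SOX10, a factor of neural crest and glia, read 0.86 FPKM in testis and 0.03 FPKM in ovary, under the minimum. The Sertoli markers gsdf, amh and DMRT1 had 835, 160 and 161 FPKM in testis, against 6.62, 0.80 and 1.30 FPKM in ovary. The part of Sertoli cell number in the SoxE levels was not tested.

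**Figure D3:**
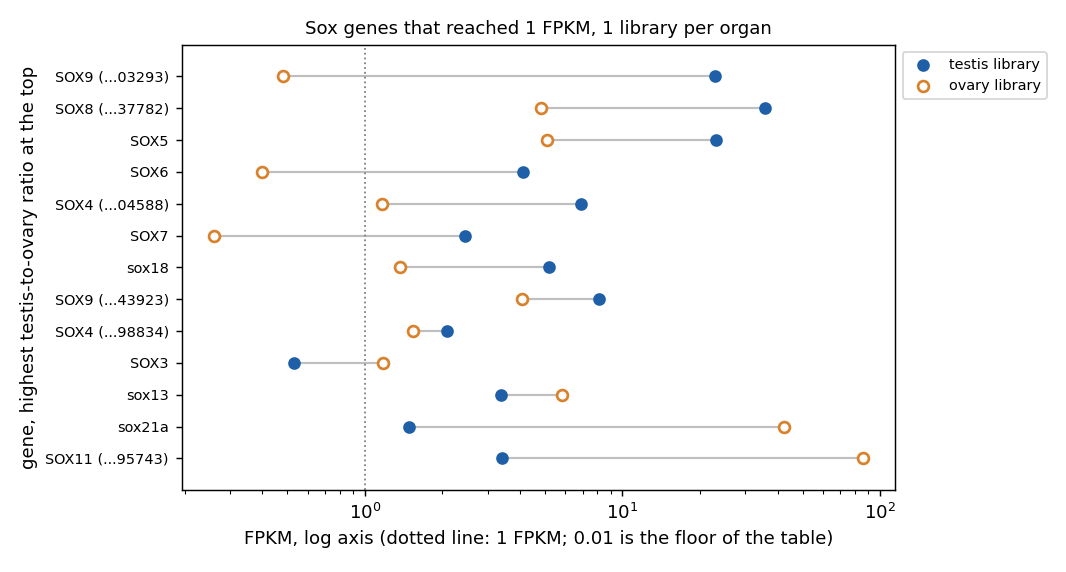
FPKM on a log axis for the 13 Sox members that reached 1 FPKM, with the testis library as filled blue points and the ovary library as open orange points, ordered by the log2 ratio. SOX9 (ENSDARG00000003293) lies at the top with 22.8 FPKM in testis and 0.48 FPKM in ovary, and SOX11 (ENSDARG00000095743) at the bottom with 3.42 and 85.7 FPKM.

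The SoxD proteins lack an activation domain of their own and work with other factors, as with SOX9 in cartilage. SOX5, of which mouse spermatids make a short form, stood at 23.1 FPKM in testis and 5.08 FPKM in ovary, a plain ratio of 4.54. SOX6 stood at 4.12 FPKM in testis and 0.40 FPKM in ovary. The third, sox13, read 3.38 FPKM in testis and 5.84 FPKM in ovary, a log2 ratio of -0.64. Under both recentred scalings it passed the rule towards ovary (-1.44 and -1.33).

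SOX11 and sox21a, known as factors of the nervous system, were the Sox members classed as higher in ovary. The gene sox19b, left out by name, is not counted here. The SOX11 identifier ENSDARG00000095743 stood at 3.42 FPKM in testis and 85.7 FPKM in ovary, a plain ratio of ovary to testis of 25.1. It was the most abundant member in ovary, ranking 1049th of all genes there and 13669th in testis. The other SOX11 identifier, ENSDARG00000077811, read 0.91 FPKM in testis and 0.24 FPKM in ovary, so 99.7% of the SOX11 level in ovary came from 1 copy. The gene sox21a, a repressor of group B2, stood at 1.48 FPKM in testis and 42.5 FPKM in ovary, a plain ratio of ovary to testis of 28.7. SOX21 read 0.08 FPKM in testis and was at the floor in ovary. Log2 ratios below those of SOX11 and sox21a were held by 251 and 266 of all genes. The oocyte markers had the same direction in 7 of 7, the lowest of them in ovary being GDF9 (1.27 FPKM in testis and 26.6 FPKM in ovary) and figla (1.30 and 36.7 FPKM); whether the SOX11 and sox21a transcripts lie in oocytes was not tested.

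The other SoxC genes were lower. The SOX4 identifier ENSDARG00000004588 stood at 6.89 FPKM in testis and 1.17 FPKM in ovary and was classed as higher in testis, while ENSDARG00000098834 read 2.09 and 1.54 FPKM and sox4a read 0.24 and 0.42 FPKM. The table holds 3 identifiers with a sox4 symbol and RefSeq lists only sox4a and sox4b, so how reads were divided among them is uncertain. The gene sox12 read 0.85 FPKM in testis and 0.02 FPKM in ovary. The SoxB1 genes are stem cell factors of the nervous system, and sox19b of this group was left out by name. Of the SoxB1 members kept, SOX3 alone reached 1 FPKM, with 0.53 FPKM in testis and 1.18 FPKM in ovary, under 2-fold. It passed the rule towards ovary with a pseudocount of 0.1 and with the median ratio set to 0, at log2 ratios of -1.02 and -1.31. SOX2 read 0.36 FPKM in testis and 0.11 FPKM in ovary.

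The SoxF genes act in blood vessels and endoderm. Of 4 measured, 2 reached 1 FPKM and both were classed as higher in testis. The shares were 50% towards testis and 0% towards ovary, over few genes, against 35.0% and 12.9% of all genes. Transcripts of sox18 stood at 5.21 FPKM in testis and 1.37 FPKM in ovary and those of SOX7 at 2.46 and 0.26 FPKM; both calls were lost under the recentred scalings. SOX17 read 0.58 FPKM in testis and 0.12 FPKM in ovary, and sox32, an endoderm factor gene that lies near sox17 in the RefSeq gene order, was at the floor in testis and at 0.08 FPKM in ovary. Of 5 measured endothelial markers, 4 were higher in testis, their sum being 37.2 FPKM in testis and 3.24 FPKM in ovary, and none was at the floor; their part in the SoxF levels was not tested. In all, 13 Sox genes stayed under 1 FPKM in both libraries, with 0.01 to 0.91 FPKM in testis and 0.01 to 0.44 FPKM in ovary. None of the 84 Fox and Sox identifiers carried the symbol sox30, the single gene of group H.

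Among the pairs of duplicated genes, the same copy usually led in both organs, though many of the copies lay under 1 FPKM. The members held 17 pairs, of which 9 are named apart by a letter and 8 share a symbol. For foxc1, foxq1 and sox21 the lettered symbol was paired with the same symbol without a letter. That the latter is the other copy was assumed. In 14 pairs the copy with the higher FPKM was the same in testis and in ovary, in 2 (foxo3 and sox9) it differed, and in foxf2 the copies were tied at the floor in ovary. Both copies reached 1 FPKM in 7 pairs, 1 copy did in 6, and neither did in 4. The 2 pairs that differed are among those 7. Where a copy lay under 1 FPKM, which copy led is less certain. The 3 identifiers with a sox4 symbol were not counted as a pair, and the highest of them also differed between the organs. The difference between the log2 ratios of the copies was largest for sox11, at 4.92 in size, then sox21 (4.23), foxo3 (3.26) and sox9 (3.17). The lower copies of sox11 and sox21 lay under 1 FPKM, where the added 1 FPKM shrinks the ratio (log2 ratios 0.62 and 0.10). Their differences therefore mostly repeat the ratio of the higher copy. The difference was 0.12 or less in size for foxk2, foxp1 and foxi3, the last of them under 1 FPKM.

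**Figure D4:**
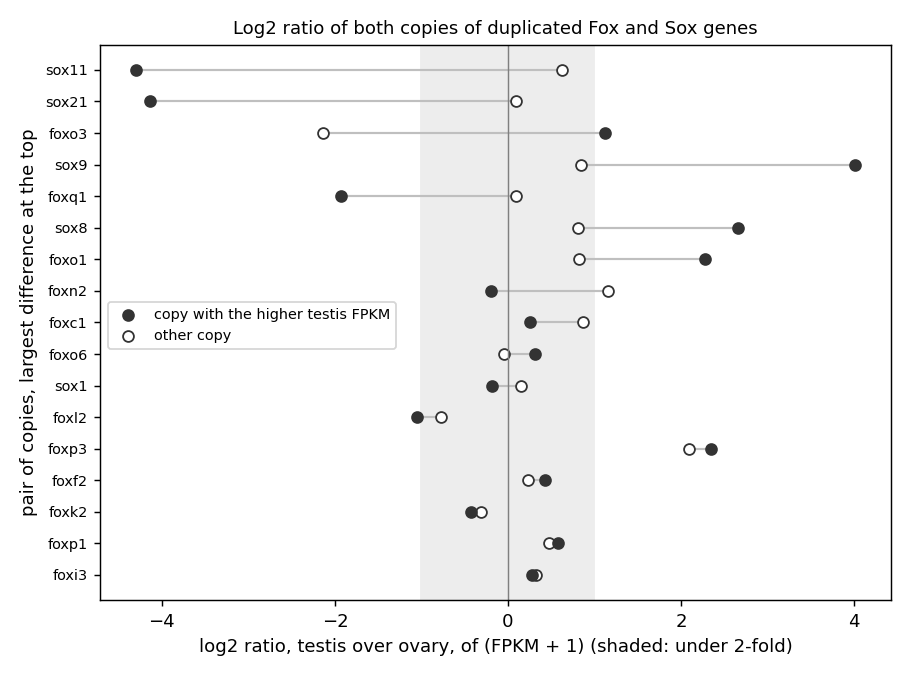
Log2 ratio of testis to ovary for both copies of 17 duplicated Fox and Sox genes, with the copy of higher testis FPKM as a filled point and the other as an open point; the shaded band is under 2-fold. The foxo3 copies fall on opposite sides of the band (1.13 for foxo3b and -2.14 for foxo3a), and the foxp3 copies both lie to the right of it (2.34 and 2.09).

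Relatives and partners outside the families were counted by the same rule. Of 25 measured genes for other HMG-box proteins, 14 were higher in testis and 4 in ovary (median log2 ratio 1.46). All 25 reached 1 FPKM, and the shares were 56% and 16%, against 45.1% and 16.6% of all genes at that level. With the median ratio set to 0, all genes divided into 4777 and 5779, and these 25 into 10 and 8. The most abundant by the mean of both libraries encode chromatin proteins: hmgb2b stood at 1100 FPKM in testis and 276 FPKM in ovary, hmgb1a at 1020 and 51.0 FPKM, and hmgb1b at 898 and 79.0 FPKM. The highest of the list in ovary was HMGB2, with 190 FPKM in testis and 394 FPKM in ovary, classed as higher in ovary; it too was named after its values were seen. Of 19 measured gonadal transcription factors, 7 were higher in testis and 3 in ovary (median log2 ratio 0.78). The shares were 36.8% and 15.8%, against 35.0% and 12.9% of all genes of the table. With the median ratio set to 0, all genes divided into 4777 and 5779, and these 19 into 5 and 4. Among the most abundant of that list, DMRT1, a testis factor, stood at 161 FPKM in testis and 1.30 FPKM in ovary. The beta-catenin genes ctnnb2 and CTNNB1 had 81.3 and 88.9 FPKM in testis, against 198 and 92.0 FPKM in ovary.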

How the data were processed

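RNA sequencing gave 1 library per organ on the BGISEQ-500 platform from RNA extracted with Trizol, per the labels' protocols. The authors deposited 1 table with a column of FPKM for each organ, per the file headers; the submitters' processing notes name HISAT, Bowtie2, RSEM and the build GRCz10. No source used here gives versions, the annotation or strand handling. Neighbouring and antisense genes, and near-identical copies, may therefore share reads. Depth is unknown, so no interval is given.

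Symbols came from a table of gene names, which named 21881 of 24539 identifiers; capitals are printed as given. Of the members, 18 identifiers share 9 symbols. Genes of lists were matched on a unique symbol, or on the symbol less a final a or b where RefSeq (assembly GRCz12tu, used for names and gene order only) gives it as a synonym. Matched were 25 of 29 HMG-box genes, 15 of 27 FoxO regulators, 23 of 25 FoxM1 genes and 19 of 24 gonadal factors. Leydig markers (4 of 5 higher in testis) and epithelial markers (2 of 4 higher in testis, 1 in ovary) were also counted.

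The log2 ratio was that of (FPKM + 1) in testis over ovary, and the rule was 2-fold with 1 FPKM in the higher library. Plain ratios are between FPKM values above the floor of 0.01. All calculations used Python 3.11.15 with pandas 2.3.3, and the scaling step was tested on simulated data. Every member that reached 1 FPKM is named, except 1 that is counted but not reported here; also named are fixed gonad genes and the 3 most abundant genes of each list of partners; markers are given as sums, with a few named. Pairs were extended to identifiers that share a symbol after the symbols were seen. The members and lists were chosen with earlier results of these data known. No per-sample column was left unused.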

Additional observations from a re-analysis of the deposited data

How the results depend on the processing

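Alternatives were other pseudocounts, minimums, scalings and a 4-fold rule, with FOXJ1 counted and FOXM1 left out added after seeing the data. The count of members higher in testis, 20, was 8 with a pseudocount of 5 and 12 with a minimum of 5 FPKM. It was 12 with the median ratio set to 0 or with the trimmed mean, and 8 under the 4-fold rule. With a pseudocount of 0.1 it was 23. Rescaling without the 100 most abundant genes of each library, 186 genes in all, gave 24. Under that rescaling the 44 members that reached 1 FPKM kept their calls. The added calls are of members that lay under 1 FPKM before it. The count higher in ovary, 6, was 10 under both recentred scalings and 7 with a pseudocount of 0.1 or under that rescaling. The ovary count was 5 with a minimum of 5 FPKM, and 4 with a pseudocount of 5 or under the 4-fold rule. The median log2 ratio, 0.43, was 1.23 with a pseudocount of 0.1, 0.14 with 5, 0.11 with the trimmed mean and -0.37, reversed, with the median ratio set to 0, which subtracts 0.80 by construction. The Fox sum in testis was 288 FPKM without FOXM1. Over both other pseudocounts and the 3 other scalings, 8 members were classed as higher in testis each time. They were FOXM1, FOXN4, FOXO4, foxj3, SOX5, and the leading FOXO1, SOX8 and SOX9 identifiers. Another 4 were classed as higher in ovary each time (foxr1, foxo3a, sox21a and the leading SOX11 identifier). No member was classed in both directions. Under the median ratio set to 0, 8 calls were lost and 4 gained, as many as under the trimmed mean; with a pseudocount of 5, 14 were lost, and with 0.1, 4 were gained (FOXP4, foxq2, SOX3 and the lower FOXO1 identifier). No paired analysis was possible because each organ has 1 library. Unknown depth limits genes under 1 FPKM most.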
